A study of Mus musculus with 2 samples.

Results

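Nfatc1 and 4 transcription factors grouped with it for the osteoclast (OC) lineage, Jdp2, Prdm1, Mitf and Tfec, were followed through single-cell mRNA sequencing (scRNA-Seq) of RANKL-induced bone marrow-derived monocytes (BMDMs). They were taken as every row of the gene table with one of these symbols, which gave 5 of 32544 genes, each matched by 1 identifier in both libraries. Mouse BMDMs were cultured in M-CSF (50 ng/ml) together with RANKL (100 ng/ml), and cells were captured 24 h after RANKL was added. The control library is labelled only by its genotype, CONTROL, and the mutant library came from LysM-Cre;Arid1afl/fl cells. Both came from mice of 4 to 6 weeks per the methods of the study, which used mice of either sex, and the number of animals behind each library was not given. LysM-Cre is driven from the Lyz2 locus in myeloid cells and removes loxP-flanked exons of Arid1a, which encodes part of the BAF remodeler of chromatin. Recombination need not reach every cell, and Arid1a transcripts that keep the 3′ end are still counted. Each genotype had 1 library, so no difference between them has a replicate check. Ranges in parentheses after a value are its 95% interval. They reflect counting alone and speak of the pair of libraries, not of the genotypes behind them.

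OCs arise when RANKL reaches its receptor on myeloid precursors and activates NF-kappaB and AP-1 factors, followed by calcium and calcineurin signaling that moves NFATc1 into the nucleus. NFATc1 then sustains its own transcription and switches on resorption genes such as Ctsk, which encodes the collagenase cathepsin K, and Mmp9, which encodes a matrix metalloproteinase. JDP2 is a bZIP protein of the AP-1 group that is required for efficient RANKL-driven differentiation. PRDM1, also known as BLIMP1, is a repressor that silences anti-osteoclastic genes such as Irf8 and Bcl6. MITF and TFEC are basic helix-loop-helix factors of the MiT family. MITF works with PU.1 on OC genes, while TFEC is known mainly from macrophages.

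The RefSeq table held 300-base promoter windows (GRCm38.p6, from 250 bases before to 50 after a start) for 4 of the 5 members. Prdm1 and Tfec are shown because each has 1 listed start, and because Prdm1 was lower and Tfec higher in the mutant library. Jdp2 and Mitf have 3 starts each, and 3′ counts do not tell which is used. Both strands were searched for GGAAA (the NFAT core), TGANTCA (AP-1), TGACGTCA (the cyclic AMP response element), CACGTG or CATGTG (MiT E-box) and GGAAGT (PU.1 core), and matches are in capitals. GGAAA and GGAAGT share their first 4 letters, so that both read the common GGAA core. Prdm1 is on the minus strand at chr10:44458699-44458998 and Tfec on the minus strand at chr6:16898392-16898691.
Prdm1: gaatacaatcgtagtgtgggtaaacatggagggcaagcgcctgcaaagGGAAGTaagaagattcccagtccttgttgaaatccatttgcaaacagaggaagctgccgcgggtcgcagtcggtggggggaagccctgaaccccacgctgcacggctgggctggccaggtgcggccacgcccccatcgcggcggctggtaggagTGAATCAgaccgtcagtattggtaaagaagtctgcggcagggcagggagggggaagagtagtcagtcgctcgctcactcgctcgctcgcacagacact
Tfec: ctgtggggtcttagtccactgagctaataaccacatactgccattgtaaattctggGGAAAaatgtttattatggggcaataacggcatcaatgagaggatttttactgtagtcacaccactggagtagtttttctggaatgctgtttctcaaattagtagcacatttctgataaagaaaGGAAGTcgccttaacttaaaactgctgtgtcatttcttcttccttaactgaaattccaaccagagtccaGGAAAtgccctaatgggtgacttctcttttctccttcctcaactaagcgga
The Prdm1 window held 1 AP-1 match and 1 PU.1 core, and no NFAT core. The Tfec window held 2 NFAT cores and 1 PU.1 core. Of the other windows, the third of Jdp2 and the second of Mitf each held 1 NFAT core, the third of Mitf held 1 NFAT core and 1 cyclic AMP response element, and the rest held no match. Among 32851 such windows of all genes, 61.3% held GGAAA, 23.8% GGAAGT, 20.4% a MiT E-box, 7.81% TGANTCA and 1.79% TGACGTCA. The letters alone describe these windows and say nothing of binding.

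After cells with fewer than 500 genes or more than 10% mitochondrial unique molecular identifiers (UMIs) were left out, 6269 control cells and 5663 mutant cells remained, with medians of 23978 and 21734 UMIs. Arid1a was at 51.9 CPM (50.8 to 53.0) in control and 20.4 CPM (19.6 to 21.2) in mutant cells of at least 5000 UMIs, where CPM is UMIs per 1000000 UMIs. The monocyte and macrophage list (Csf1r, Cd68, Adgre1, Lyz2, Ctsb and Fcgr3) had no marker at 0 and summed to 13908 and 10917 CPM. Within it Lyz2 was lower in the mutant library (log2 ratio -0.99), and Adgre1 (1.86) and Csf1r (0.65) were higher. The median share of ribosomal protein UMIs was 21.7% in control and 15.9% in mutant cells, and that of mitochondrial UMIs 2.04% and 1.27%. The neutrophil list summed to 275 CPM in control and 2063 CPM in mutant cells, with all 6 markers at least 2-fold higher in the mutant library. Gated as cells with at least 1% of UMIs from S100a8, S100a9, Ngp and Camp, neutrophils were 19 control and 89 mutant cells. Stromal markers summed to 6.70 and 12.8 CPM, mast and basophil markers to 0.880 and 3.41 CPM, T and NK markers to 0.177 and 0.974 CPM, and dendritic markers to 0.110 and 0.434 CPM. The B and plasma cell list summed to 110 and 57.0 CPM, nearly all of it Sdc1, with Mzb1 at 0 in both. Cd3e, Trbc2 and Gzma were at 0 in both, Cpa3 at 0 in control and Ms4a2 at 0 in mutant cells. The libraries shared 8 barcodes, and 333 control and 275 mutant cells with high doublet scores were kept.

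Nfatc1, Jdp2 and Prdm1 were lower and Mitf and Tfec higher in the mutant library over all cells. Nfatc1 (ENSMUSG00000033016; GRCm39 chromosome 18, 80649266 to 80756295, minus strand), the master factor of the lineage, was counted with 8450 UMIs in control and 3934 UMIs in mutant cells. Its level was 51.6 CPM (50.5 to 52.8) in control and 29.9 CPM (29.0 to 30.9) in mutant cells, for a log2 ratio of -0.79 (-0.84 to -0.73). In such sums, fewer cells expressing a gene and less RNA per expressing cell cannot be told apart.

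Jdp2 (ENSMUSG00000034271; chromosome 12, 85645015 to 85690570, plus strand) had the lowest ratio of the 5. It was at 152 CPM (150 to 154) in control and 60.3 CPM (59.0 to 61.6) in mutant cells, for a log2 ratio of -1.34 (-1.37 to -1.30). Prdm1 (ENSMUSG00000038151; chromosome 10, 44313171 to 44404497, minus strand), the repressor, was at 12.8 CPM (12.3 to 13.4) and 6.33 CPM (5.91 to 6.77), a log2 ratio of -1.02 (-1.14 to -0.90). Antisense entries overlap Nfatc1 (Gm50211, 0 control UMIs and 1 mutant UMI) and Jdp2 (Gm47863, 404 and 139 UMIs), and the sources do not say if strand was used in counting. The intervals of the libraries did not overlap for any of the 3 genes. Such intervals are narrow at these UMI totals, and the share of all genes without overlap was not counted. Without neutrophil-gate and stromal-gate cells the ratios of Nfatc1, Jdp2 and Prdm1 were -0.79, -1.34 and -1.02.

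The MiT factors lay on the other side. Mitf (ENSMUSG00000035158; chromosome 6, 97783950 to 97998323, plus strand) had 34.9 CPM (34.0 to 35.9) in control and 39.7 CPM (38.6 to 40.8) in mutant cells, for a log2 ratio of 0.18 (0.13 to 0.24). Tfec (ENSMUSG00000029553; chromosome 6, 16833372 to 16898440, minus strand) had 21.0 CPM (20.3 to 21.7) and 35.2 CPM (34.2 to 36.2), a log2 ratio of 0.74 (0.68 to 0.81). Totals without mitochondrial and ribosomal protein genes shift every ratio by -0.11, which left Mitf at 0.075 and Tfec at 0.63. Of 8650 genes whose mean reached 5 CPM, 1.62% were 2-fold or more lower and 5.9% 2-fold or more higher in the mutant library, with a median log2 ratio of 0.052. All 5 members were at that mean, and 2 of them, Jdp2 and Prdm1, were 2-fold or more lower while none was 2-fold higher. The members' median was -0.79. With every cell weighted alike in place of every UMI, Prdm1 was at -0.84, short of 2-fold.

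**Figure D1:**
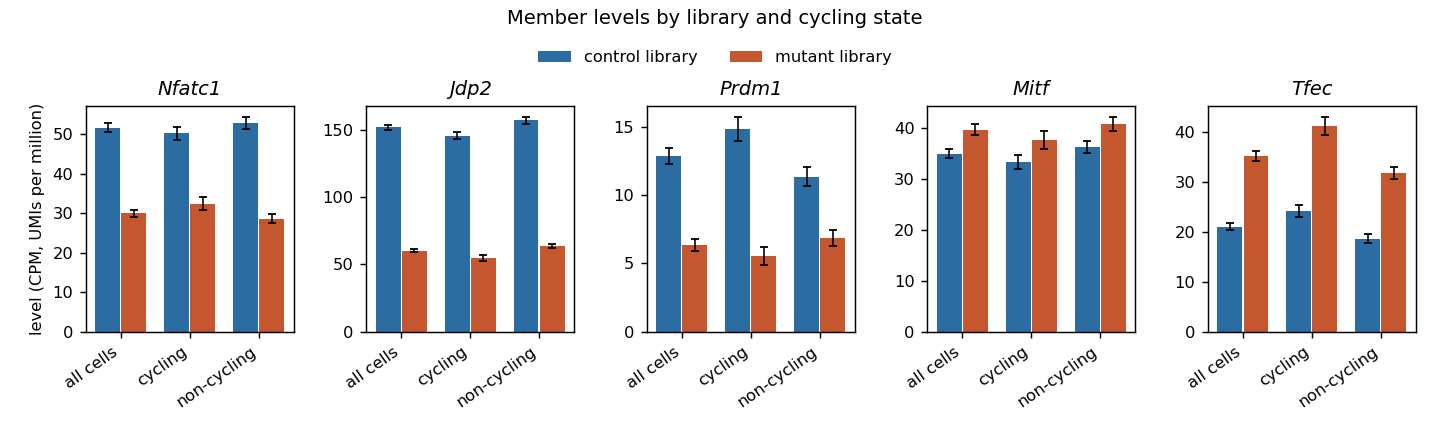
Level of each member (CPM, linear axis from 0, a separate scale for each gene) in the control library (blue) and the mutant library (orange), over all cells and in cells inside or outside the cycling gate. Bars are sums over cells of 1 library and error bars are 95% exact Poisson intervals. Nfatc1, Jdp2 and Prdm1 are lower in the mutant library in every group of cells, and Mitf and Tfec are higher.

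The same directions were seen in cells inside and outside of the cycling state. To read the state at equal depth, each cell of at least 5000 UMIs was thinned to 5000 UMIs, and cells with 3 or more UMIs of Mki67, Top2a, Aurka and Cdk1 were called cycling. This gave 2398 of 6101 control cells (39.3%) and 1784 of 5312 mutant cells (33.6%), while levels use all UMIs of those cells. Of the gate genes, Mki67 itself was lower in the mutant library, at a log2 ratio of -0.77, and Top2a was at 0.087. Nfatc1 had a log2 ratio of -0.64 (-0.72 to -0.55) in cycling cells, from 50.2 to 32.3 CPM, and of -0.89 (-0.96 to -0.81) in non-cycling cells, from 52.9 to 28.6 CPM. Jdp2 was at -1.42 (-1.48 to -1.36) in cycling and -1.31 (-1.35 to -1.26) in non-cycling cells. Mitf was at 0.18 (0.090 to 0.27) and 0.17 (0.10 to 0.24), and Tfec was at 0.77 in both states. In cycling cells 1.97% of genes were 2-fold or more lower in the mutant library, and 2 of the 5 members were, Jdp2 and Prdm1. In non-cycling cells 1.55% were, and 1 member was, Jdp2.

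Over all cells of at least 5000 UMIs, Prdm1 was the member whose ratio depended most on the state. In the control library it was higher in cycling cells, at 14.8 CPM (13.9 to 15.7), than in non-cycling cells, at 11.4 CPM (10.7 to 12.1). In the mutant library it was lower in cycling cells, at 5.51 CPM (4.87 to 6.21), than in non-cycling cells, at 6.82 CPM (6.27 to 7.41). The log2 ratio of cycling over non-cycling cells was therefore 0.38 in control and -0.31 in mutant cells, and these differed by -0.69 (-0.94 to -0.45). The difference was -0.73 (-1.02 to -0.43) among cells with no Ctsk or Mmp9 UMI and -0.97 (-1.76 to -0.18) with 1 to 2 such UMIs. Among cells with 3 or more it was -0.49 (-1.17 to 0.18), an interval that includes 0. Nfatc1 had a smaller difference of 0.25 (0.14 to 0.36), with -0.074 in control and 0.18 in mutant cells, and among cells with no Ctsk or Mmp9 UMI it was 0.071 (-0.061 to 0.20). With 1 to 2 such UMIs it was 0.34 (-0.046 to 0.72), and with 3 or more 0.61 (0.22 to 0.997). Tfec was higher in cycling cells by 0.38 in each library, and the difference was -0.0023 (-0.13 to 0.13).

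Cells were then graded by the OC genes themselves. Ctsk and Mmp9 were summed at 5000 UMIs, which put 4942 control and 4984 mutant cells in the class with 0 UMIs, 829 and 275 in the class with 1 to 2 UMIs, and 330 and 53 in the class with 3 or more. The upper class thus held 5.41% of control cells and 0.998% of mutant cells. No member enters these classes, but Ctsk and Mmp9 differ between the libraries. In the upper class Ctsk was at 598 CPM in control and 674 CPM in mutant cells, and Mmp9 at 494 and 308 CPM. Neutrophils themselves carry Mmp9, at 45.1 CPM (33.7 to 59.2) in the mutant neutrophil gate against 5.55 CPM in the rest, and the gate held 4 mutant cells of the class with 1 to 2 UMIs and 1 of the upper class.

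In the control library 4 of the 5 members were more than 2-fold higher in the upper class than in the class with 0 UMIs, where 2.22% of genes were. Nfatc1 was 6.85-fold (6.51 to 7.21), Prdm1 5.89-fold (5.27 to 6.56), Jdp2 4.39-fold (4.25 to 4.54) and Mitf 2.41-fold (2.22 to 2.60) higher. Tfec differed by 1.38-fold (1.21 to 1.56). In the class with 1 to 2 UMIs 3 members, Nfatc1, Jdp2 and Prdm1, were already more than 2-fold higher, where 0.388% of genes were. The classes were made from Ctsk and Mmp9, so these folds describe which members go with those genes.

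In the mutant library the upper class also stood apart. Nfatc1 was 5.47-fold (4.78 to 6.24), Jdp2 6.26-fold (5.72 to 6.84) and Prdm1 9.40-fold (7.37 to 11.9) higher there than in the class with 0 UMIs, so 3 of the 5 members were 2-fold higher, where 2.34% of genes were. Mitf differed by 1.63-fold (1.32 to 1.98), and for Tfec the fold of 1.17 (0.899 to 1.496) included 1. In the class with 1 to 2 UMIs no member was 2-fold higher, where 0.47% of genes were. Nfatc1 there was 1.35-fold (1.19 to 1.53) above the class with 0 UMIs, against 2.57-fold (2.43 to 2.71) in the control library. Without the 7 mutant cells of 11 or more UMIs, the upper class was at 97.2 CPM for Nfatc1, 282 CPM for Jdp2 and 39.6 CPM for Prdm1, against 27.9, 54.6 and 5.51 CPM in the class with 0 UMIs. In the class with 0 UMIs the mutant levels of Nfatc1 and Jdp2 lay within the intervals measured in neutrophil-gate cells (14.0 to 32.0 and 42.8 to 70.9 CPM). These 2 folds thus start from a level not distinguishable from that of neutrophil-gate cells. The intervals rest on 25 Nfatc1 and 64 Jdp2 UMIs in 89 cells, and how much of those was free RNA was not tested. On the log2 scale the step of Nfatc1 from 0 to 1 to 2 UMIs differed by -0.93 (-1.12 to -0.73) between the libraries.

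Set side by side within a class, in the draw of 5000 UMIs used throughout, the libraries differed least in Nfatc1 where cells had no Ctsk or Mmp9 UMI. The log2 ratio of mutant over control was -0.22 (-0.28 to -0.15) in the class with 0 UMIs, from 32.5 to 27.9 CPM. It was -1.14 (-1.33 to -0.96) in the class with 1 to 2 UMIs, from 83.3 to 37.7 CPM, and -0.54 (-0.74 to -0.35) in the upper class, from 222 to 153 CPM. The ratio with 1 to 2 UMIs moved with the setting, to -0.65 at 10000 UMIs per cell and -0.97 with every cell weighted alike. When cells were thinned to 2000 UMIs instead, the upper-class ratio of Nfatc1 turned to 0.43. With another random draw of 5000 UMIs it was -0.19, against -0.25 in the class with 0 UMIs. Its size in the upper class, and which class differed least, were thus not settled by these cells. In the draw used throughout, Nfatc1 ordered from high to low ran through the upper class, the class with 1 to 2 UMIs and the class with 0 UMIs. Control was above mutant within each in that draw. Among neighbours in that order, only mutant 1 to 2 UMIs (33.3 to 42.6) and control 0 UMIs (31.5 to 33.5) overlapped in their intervals.

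Jdp2 differed clearly in the class with 0 UMIs too, with 109 and 54.6 CPM and a log2 ratio of -0.997 (-1.04 to -0.95), just short of 2-fold. It was at -1.36 (-1.48 to -1.25) with 1 to 2 UMIs and -0.49 (-0.62 to -0.36) in the upper class. Prdm1 was at -0.54 (-0.68 to -0.40), -1.22 (-1.59 to -0.87) and 0.14 (-0.22 to 0.48), so the upper class showed no difference beyond counting error. Mitf was at 0.38 (0.32 to 0.44) in the class with 0 UMIs, and its intervals included 0 in the other classes, at -0.18 (-0.38 to 0.016) and -0.19 (-0.50 to 0.12). Tfec was higher in the mutant library in all 3 classes, at 0.82 (0.74 to 0.89), 0.64 (0.43 to 0.86) and 0.58 (0.16 to 0.97).

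Past 2-fold lower were 0 of 5 members in the class with 0 UMIs, where 1.32% of genes were, 3 of 5 in the class with 1 to 2 UMIs, where 2.61% were, and 0 of 5 in the upper class, where 2.38% were. The 3 were Nfatc1, Jdp2 and Prdm1. At 10000 UMIs per cell Nfatc1 (-0.65) and Prdm1 (-0.91) were short of 2-fold there, and only Jdp2 (-1.09) was past it. Because Mmp9 was far lower in the mutant library than Ctsk, classes were also read from Ctsk alone, a choice made after seeing the data. Nfatc1 was then at -0.44, -1.83 and -0.45 in the 3 classes, and Jdp2 at -1.21, -1.73 and -0.59.

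**Figure D2:**
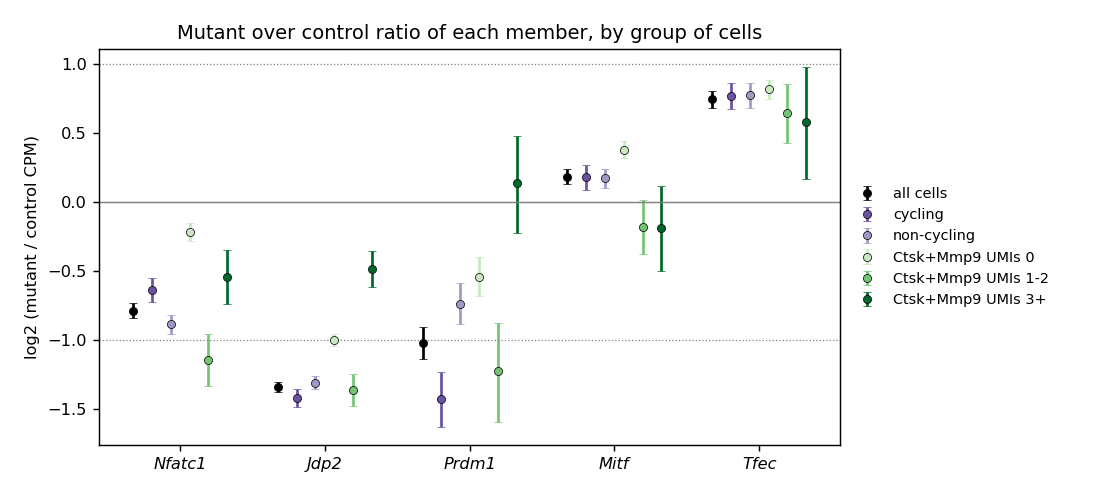
Log2 ratio of mutant over control CPM (vertical axis) for each member, over all cells, by cycling state and by the number of Ctsk plus Mmp9 UMIs at 5000 UMIs per cell. Points are ratios of 1 library to 1 library with 95% exact intervals for counting error, the solid line marks 0 and the dotted lines 2-fold. Nfatc1 lies lowest with 1 to 2 UMIs at -1.14, and Tfec lies above 0 throughout.

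The upper mutant class rested on few cells. Of its 53 cells, 7 had 11 or more Ctsk plus Mmp9 UMIs, and they held 109 of the 239 Nfatc1 UMIs of the class. Nfatc1 was at 480 CPM (394 to 579) in these 7 cells, against 310 CPM (280 to 342) in the 39 control cells of the same range. Single cells ranged from 0 to 35 Nfatc1 UMIs with a median of 12, and 6 of the 7 had at least 1. Prdm1 was at 123 CPM (82.0 to 178) in the mutant and 38.9 CPM (28.8 to 51.5) in the control cells of that range, and Jdp2 at 692 CPM (588 to 809) and 509 CPM (470 to 549). None of the 7 cells had a high doublet score, a shared barcode or a place in the neutrophil gate.

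Below 11 UMIs Nfatc1 was lower in the mutant library in each bin shown in the plot of levels along Ctsk plus Mmp9 counts. In cells with 3 to 10 UMIs Nfatc1 was at 210 CPM in control and 97.2 CPM in mutant cells, and without the cells of 11 or more UMIs in either library the upper-class log2 ratio was -1.11 for Nfatc1, -0.75 for Jdp2 and -0.28 for Prdm1. Leaving these cells out was also chosen after seeing the data. Arid1a was at 61.7 CPM (33.7 to 104; 14 UMIs) in the 7 cells, at 22.4 CPM (15.1 to 32.0) in mutant cells with 3 to 10 UMIs and at 20.2 CPM (19.4 to 21.0) in mutant cells with 0. Control cells of 11 or more UMIs were at 36.5 CPM (26.8 to 48.8). The part of Arid1a in the levels of these 7 cells was not tested.

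Mutant cells were also split by Arid1a itself at 5000 UMIs, again after seeing the data. Nfatc1 was at 29.6 CPM (28.7 to 30.6) in the 4800 mutant cells with no Arid1a UMI, 31.8 CPM (28.7 to 35.3) in 477 cells with 1 and 54.5 CPM (39.1 to 73.9) in 35 cells with 2 or more. Of those 35 cells 1 was among the cells with 11 or more Ctsk plus Mmp9 UMIs, and without it Nfatc1 was at 18.2 CPM (9.67 to 31.1). The higher value thus came from 1 cell. In control cells the levels were 53.1, 46.5 and 48.9 CPM.

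**Figure D3:**
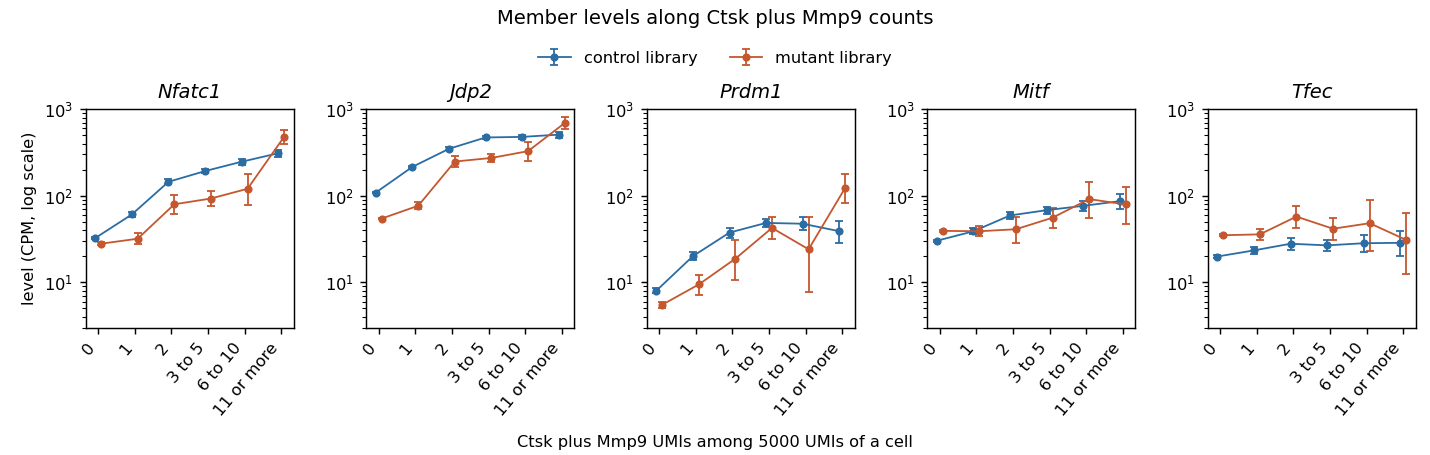
Level of each member (CPM, log axis) in cells binned by Ctsk plus Mmp9 UMIs among 5000 UMIs of the cell, for the control (blue) and the mutant library (orange), with 95% exact Poisson intervals. Nfatc1 in the control library goes from 32.5 CPM at 0 UMIs to 310 CPM at 11 or more, and the last mutant bin holds 7 cells.

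At 5000 UMIs per cell, the share of cells with an Nfatc1 UMI was 16.4% in control (15.5 to 17.4%) and 11.9% in mutant (11.1 to 12.8%), which differ by -4.49 points (-5.77 to -3.20). Jdp2 was seen in 34.7% and 16.7% (-18.0 points, from -19.5 to -16.4), and Prdm1 in 5.20% and 2.80% (-2.39 points, from -3.12 to -1.67). Mitf was seen in 15.1% and 17.5% (2.48 points, 1.11 to 3.86), and Tfec in 10.1% and 15.9% (5.80 points, 4.55 to 7.05). On unthinned counts Nfatc1 was seen in 44.2% and 41.0%, Jdp2 in 57.9% and 35.7%, Prdm1 in 17.1% and 9.41%, Mitf in 49.0% and 52.1% and Tfec in 37.9% and 47.6%.

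The 10% of cells with the most Nfatc1 UMIs held 64.2% of them in control and 49.1% in mutant cells. For Jdp2 the shares ran the other way, with 53.7% and 69.8%. Cells with 10 or more Nfatc1 UMIs numbered 189 in control and 16 in mutant, and the highest single cell had 49 and 35 UMIs. For Jdp2 such cells numbered 885 and 194. Prdm1 was sparse throughout, with at most 15 and 13 UMIs in a cell.

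RNA free in the droplets sets a floor for these readings. Neutrophil-gate cells were taken to show it, at medians of 7523 control and 9907 mutant UMIs against 24031 and 21848 in the rest, although whether neutrophils lack each member was not tested. In the mutant library Nfatc1 was at 21.7 CPM (14.0 to 32.0) in neutrophil-gate cells against 29.98 CPM in the rest, and Jdp2 at 55.5 CPM (42.8 to 70.9) against 60.4 CPM. By share, 7 of 75 such cells had an Nfatc1 UMI (9.33%, 3.84 to 18.3%) and 12 of 75 a Jdp2 UMI (16%, 8.55 to 26.3%), at 5000 UMIs. The mutant levels of Nfatc1 and Jdp2 over all cells were therefore not distinguishable from those of neutrophil-gate cells. Those of the class with 1 to 2 UMIs (37.7 and 97.7 CPM) and of the upper class lay above them. The gate did not shift all genes alike, with Ctsk at 3.47 against 20.7 CPM in the rest and Mmp9 at 45.1 against 5.55 CPM. How much of the Nfatc1 and Jdp2 level in the gate was free RNA was not tested.

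Mitf was at 13.9 CPM (7.93 to 22.5) in mutant neutrophil-gate cells against 39.9 CPM in the rest, and a Mitf UMI was seen in 0 of 75 such cells, where 3 cells would be 4% and the exact upper bound is 4.80%. Tfec was at 26.0 CPM (17.6 to 37.2) against 35.3 CPM, within that interval, although by share 5.33% (1.47 to 13.1%) stood against 15.9% of all mutant cells. Prdm1 had 0 UMIs in 89 mutant neutrophil-gate cells, where 3 UMIs would be 2.60 CPM, against 6.37 CPM in the rest. In the control library Nfatc1 was at 15.8 CPM (3.26 to 46.2) in 19 neutrophil-gate cells against 51.7 CPM, and Jdp2 at 26.3 CPM (8.55 to 61.5) against 153 CPM. By share, 1 of 17 such cells had an Nfatc1 UMI (5.88%, 0.149 to 28.7%) and 2 of 17 a Jdp2 UMI (11.8%, 1.46 to 36.4%), and these intervals hold the 16.4% and 34.7% of all control cells. Prdm1 had 0 UMIs there, where 3 would be 15.8 CPM, above its 12.9 CPM in the rest, so the control background of Prdm1 was not resolved.

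Whether single cells carried a member together with the resorption genes was asked next at the same depth. In the control library 22.9% (20.3 to 25.6%) of 1001 cells with an Nfatc1 UMI had a Ctsk UMI, against 7.57% (6.86 to 8.33%) of cells without one, a difference of 15.3 points (12.6 to 18.1). The 229 cells with both were 2.27 times the 101 expected if detection were independent. In the mutant library the shares were 7.74% (5.78 to 10.1%) and 4.74% (4.15 to 5.39%), a difference of 2.996 points (0.932 to 5.43), with 49 such cells against 32.3 expected. For Mmp9 the control shares were 26.9% and 9.55% and the mutant shares 3.16% and 1.03%, with ratios of observed over expected cells of 2.17 and 2.47. The smaller Nfatc1 to Ctsk gap in the mutant library was 4.97 points (1.34 to 9.60) in cycling cells and 1.87 points (-0.520 to 4.87) in non-cycling cells, the latter not distinguishable from 0 at this depth. In the control library it was 15.0 and 15.6 points. With doublets removed, the gap over all cells was 15.8 points in control and 3.45 points in mutant cells.

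Prdm1 and Jdp2 went with the same genes. Of control cells with a Prdm1 UMI, 34.1% (28.9 to 39.6%) had an Mmp9 UMI against 11.2% of those without, and in the mutant library 6.04% (2.80 to 11.2%) against 1.14%, from 9 cells. For Ctsk the Prdm1 shares were 22.7% against 9.39% in control and 14.8% against 4.82% in mutant cells, a gap of 9.94 points (4.63 to 16.7) in the latter. Jdp2 was seen in 66.4% of control Mmp9-positive cells and in 57.4% (44.8 to 69.3%) of mutant ones, although it was seen in 34.7% and 16.7% of all cells. For Ctsk, Jdp2-positive cells exceeded Jdp2-negative ones by 10.9 points (9.12 to 12.7) in control and 2.39 points (0.660 to 4.38) in mutant cells. Ctsk was seen in 10.1% of control and 5.10% of mutant cells and Mmp9 in 12.4% and 1.28%, so mutant gaps in points have less room. Observed over expected cells for Jdp2 were 1.71 in control and 1.39 in mutant cells with Ctsk, and 1.91 and 3.43 with Mmp9. For Prdm1 they were 2.25 and 2.89 with Ctsk, and 2.75 and 4.72 with Mmp9.

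The MiT factors were split. Mitf-positive control cells had Ctsk in 16.3% against 8.97% of Mitf-negative cells (7.35 points, 4.88 to 10.0), while in the mutant library the shares were 4.72% and 5.18%, a difference of -0.46 points (-1.91 to 1.23) that included 0. This Ctsk difference was 2.74 points at 10000 UMIs per cell, so its sign was not settled. For Mmp9 the Mitf gap was 10.1 points in control and 1.05 points (0.147 to 2.23) in mutant cells, and the latter was 0.097 with another random draw. Observed over expected cells for Mitf with Mmp9 were 1.69 in control and 1.68 in mutant cells, the latter from 20 cells with both. With Ctsk the ratios were 1.62 and 0.925. Tfec-positive cells had Ctsk in 11.97% against 9.87% in control cells, a difference of 2.11 points (-0.480 to 5.04), and in 6.50% against 4.84% in mutant cells, a difference of 1.66 points (-0.0393 to 3.64). Neither difference could be told from 0 at this depth. For Mmp9 the Tfec gap was 2.96 points (0.087 to 6.14) in control and 0.73 points (-0.156 to 1.93) in mutant cells.

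**Figure D4:**
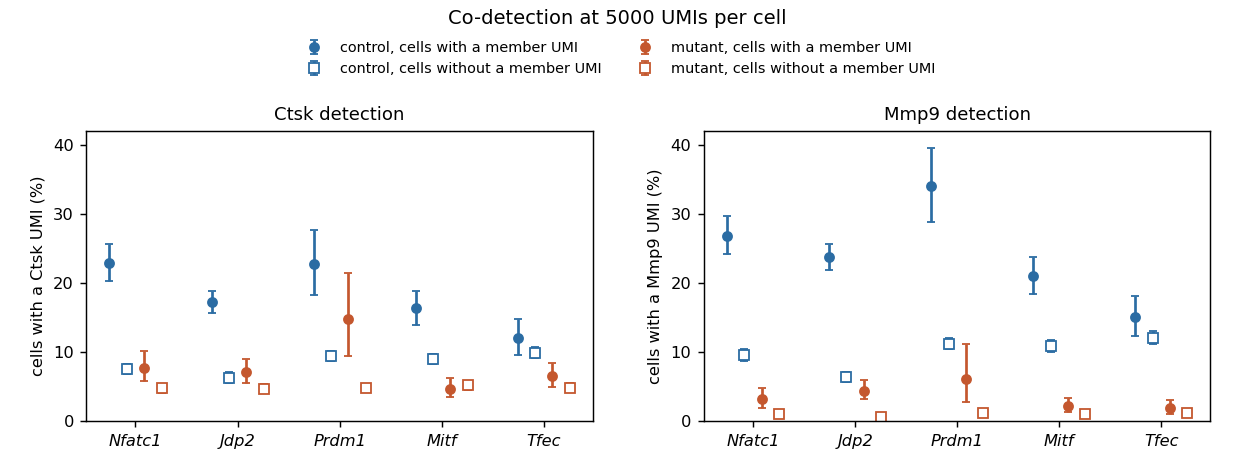
Share of cells with a Ctsk UMI (left) or an Mmp9 UMI (right), in percent, among cells with (filled) and without (open) a UMI of each member, at 5000 UMIs per cell, in the control (blue) and the mutant library (orange), with 95% exact binomial intervals. In control cells the filled points lie above the open ones for every member, with the smallest gaps for Tfec. In mutant cells the Ctsk gap for Nfatc1 is 2.996 points.

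Cells that had both Ctsk and Mmp9 were 212 in control and 11 in mutant. Nfatc1 was at 245 CPM (234 to 257) in the former and 300 CPM (252 to 355) in the latter, and Jdp2 at 480 CPM (464 to 497) and 554 CPM (487 to 627). Cells with Ctsk but no Mmp9 numbered 403 and 260, with Nfatc1 at 103 CPM (97.2 to 109) and 42.6 CPM (37.8 to 47.8). Cells with Mmp9 but no Ctsk numbered 544 and 57, with Jdp2 at 326 CPM (317 to 335) and 290 CPM (262 to 321). For cells with both genes the intervals of the libraries overlapped, while for cells with Ctsk alone the mutant level of Nfatc1 was below that of control. The mutant value comes from 135 Nfatc1 UMIs in 11 cells, 8 of which had an Nfatc1 UMI at 5000 UMIs.

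Members were also found together in the same cells. Nfatc1 and Prdm1 shared 126 control cells, 2.42 times (2.02 to 2.88) the number expected, and 35 mutant cells, 1.97 times (1.37 to 2.74). Jdp2 and Prdm1 shared 2.00 times (1.74 to 2.28) and 2.85 times (2.23 to 3.595) the expected number, and Nfatc1 and Jdp2 1.73 times (1.59 to 1.87) and 1.36 times (1.15 to 1.60). Nfatc1 and Mitf were together 1.59 times (1.39 to 1.80) the expected number in control cells, but 0.882 times (0.716 to 1.08) in mutant cells. All 4 pairs with Tfec had intervals that included 1 in both libraries. All pairs come from the same cells of a library.

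Cells with more of the 5 members carried the resorption genes more often. In the control library Ctsk was seen in 5.47% of 2778 cells with no member, 8.94% of 2104 with 1, 17.8% of 864 with 2, 32.6% (27.2 to 38.4%) of 285 with 3 and 40.0% (28.04 to 52.9%) of 65 with 4. In the mutant library the shares were 4.21% of 2684, 5.34% of 1949, 6.47% of 556, 14.3% (8.22 to 22.5%) of 105 and 16.7% (3.58 to 41.4%) of 18 cells. All 5 members were seen in 5 control cells and in 0 of 5312 mutant cells, where 3 cells would be 0.0565%.

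How far the mix of cells goes with the summed levels was described by giving the mutant library the control shares of the 6 groups formed by cycling state and Ctsk plus Mmp9 class. Nfatc1 in the mutant library then came to 37.3 CPM (35.7 to 38.9), a log2 ratio to control of -0.47 in place of -0.79. Jdp2 came to 78.3 CPM (-0.96 in place of -1.34) and Prdm1 to 9.01 CPM (-0.51 in place of -1.02). Mitf came to 0.22 and Tfec to 0.79, close to the values as counted. Since class membership is itself an outcome, these values do not assign shares to the mix and to the cells.

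Across the 12 groups of cells (2 libraries, 2 states and 3 classes, the smallest of 21 cells), 8668 genes were kept for averaging 5 CPM or more over these groups and were ranked by Pearson correlation of log2(CPM + 1) with Nfatc1, as a description. The points share libraries and depth, and the groups were made from Ctsk and Mmp9. Prdm1 was at rank 24 (r = 0.953), Jdp2 at rank 28 (r = 0.949) and Mitf at rank 135 (r = 0.892), while Tfec was at rank 4073 (r = 0.072). The 5 genes most like Nfatc1 were Rai14 (r = 0.984), Ccr3, Psmb7, Dnmt3a and Cyp2s1 (r = 0.974). Ccr3 (3.63 and 1.38 CPM) and Cyp2s1 (4.80 and 1.36 CPM) were below 5 CPM over all control and mutant cells, and were ranked because the groups count alike in that average whatever their size. Rai14, Psmb7, Dnmt3a and Cyp2s1 overlap genes on the opposite strand.

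The genes around the members were described by lists. Of 16 OC effector genes 10 reached a mean of 5 CPM, with 4 of them 2-fold or more lower, none higher and a median log2 ratio of -0.57, where 1.62% of all genes were lower and the median was 0.052. The 4 were Mmp9 (-3.26), Dcstamp (-2.36), which encodes a fusion receptor, Ctsk (-1.47) and Atp6v0d2 (-1.30), a proton pump subunit. The chloride channel partner Ostm1 (0.72) and the pump subunit Tcirg1 (0.39) were at the other end. Acp5, which encodes the tartrate-resistant acid phosphatase, was at -0.60. The study named its OC clusters in these libraries by Ctsk, Mmp9, Acp5 and Dcstamp, and Ctsk and Mmp9 also defined the classes, so the direction of the list is not independent evidence. At a mean of at least 20 CPM, 6 of the genes were left and 2 were 2-fold lower, where 1.13% of all genes were.

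The calcineurin and NFAT list, which holds the phosphatase, its calcium inputs and the other NFAT genes, had 14 of 18 genes at that mean. None was 2-fold different, where 1.62% of all genes were lower and 5.9% higher, so a count of 0 of 14 does not set the list apart. Its median was 0.20. Nfat5 was lowest (-0.57) and Itpr1, an inositol trisphosphate receptor, highest (0.63). Ppp3ca, the catalytic subunit of calcineurin, was at 0.50 (0.47 to 0.54), Nfatc3 at 0.36 and Nfatc2 at -0.022 (-0.11 to 0.068). Rcan1, a known target and inhibitor of calcineurin and NFAT signaling, was at 12.6 CPM in control and 12.7 CPM in mutant cells, for a log2 ratio of 0.013 (-0.081 to 0.11).

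Of 12 inducers and partners of Nfatc1 all were at the mean of 5 CPM, and their median was 0.22, where that of all genes was 0.052. None was 2-fold different, where 1.62% of all genes were lower and 5.9% higher, so 0 of 12 does not set the list apart. Fosl2 was lowest (-0.93, from -1.01 to -0.85) and Fos highest (0.63, from 0.61 to 0.65), both AP-1 subunits. Spi1, which encodes PU.1, was at 0.20, and Nfkb1 at 0.25. The MiT family, which holds the members Mitf and Tfec, had all 4 genes higher and none past 2-fold. Mitf was at 0.18, Tfe3 at 0.41, Tfeb at 0.54 and Tfec at 0.74. Their median was 0.47, above that of all genes at 0.052. A ratio above 0 was common among all genes too, so the shared direction alone does not set the family apart. Among 5 anti-osteoclastic genes, the class that PRDM1 is known to silence, 3 were 2-fold or more higher, where 5.9% of all genes were, none was lower, and the median was 1.16. At a mean of at least 20 CPM 2 of 4 were, where 5.65% of all genes were. Id1 was at 1.31, Id3 at 1.20 and Bcl6 at 1.16, while Id2 was at 0.64 and Irf8 at 0.21.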

How the data were processed

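BMDMs of 1 control and 1 mutant library were sequenced with 10x 3′ v3.1 chemistry. The authors deposited unnormalized UMI counts for each gene and barcode, made with Cell Ranger 6.1.0 (file header) on GRCm39 per the submitters' processing notes, and the methods also name an aggregation step without saying whether these counts precede it. Barcodes numbered 6455 (164004706 UMIs) in control and 5865 (131800059 UMIs) in mutant, and 186 and 202 of them failed the filter of at least 500 genes and at most 10% mitochondrial UMIs. States and shares were read in cells thinned to 5000 UMIs (6101 and 5312 cells, with 168 and 351 shallower cells left out). UMIs were summed over cells into CPM with exact Poisson intervals, ratios were given exact conditional intervals, shares Clopper-Pearson intervals and share differences intervals by the square-and-add method, all at 95%. No test was run across samples, since each group has 1 library, and intervals cover counting error only. Doublets were scored against simulated pairs and the highest scores (333 and 275 cells) were kept, with removal as an alternative.

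Members and lists were chosen with earlier results of these data known. Named genes are the members, up to 4 list genes at each end at a mean of at least 5 CPM, and the 5 genes most correlated with Nfatc1. Acp5, Tcirg1, Rcan1, Nfatc2, Nfatc3, Spi1, Nfkb1, Id2 and Irf8 were named for their roles, after their values were seen. One gene of the list of anti-osteoclastic genes is not reported here, and the list was counted without it. Of 32544 gene identifiers, 31977 were in GENCODE M39 (GRCm39), all 5 members among them. The ratio intervals were tested only on simulated Poisson counts of summed libraries. Those counts hold no spread between cells, so the test says nothing of intervals that rest on few, uneven cells. Alternatives covered scaling (TMM, median of ratios, totals without mitochondrial and ribosomal protein genes), cell weighting, depth, seed, gates, doublets and other cell types. Python 3.11.15, numpy 2.4.6, scipy 1.17.1, pandas 2.3.3, scikit-learn 1.9.0, R 4.3.3 and edgeR 4.0.16 (TMM factors only) were used.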

Additional observations from a re-analysis of the deposited data

Results flagged for a closer look

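Prdm1 was lower in the mutant library in cells with no Ctsk or Mmp9 UMI, at a log2 ratio of -0.54, and higher in cells with 3 or more, at 0.14, with an interval of -0.22 to 0.48 that includes 0. Mitf was higher in the mutant library in cells with no Ctsk or Mmp9 UMI, at 0.38, and lower in cells with 1 to 2 UMIs, at -0.18, and in cells with 3 or more, at -0.19, with intervals that include 0. Nfatc1 was lower in cycling than in non-cycling cells of the control library, at a log2 ratio of -0.074, and higher in those of the mutant library, at 0.18. Prdm1 was higher in cycling cells of the control library, at 0.38, and lower in those of the mutant library, at -0.31. Each of these was picked out because the direction was opposite in the groups of cells or libraries compared. With 1 library per genotype, none of the differences was tested across samples.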

How the results depend on the processing

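No paired analysis was possible because each group has 1 library, and leaving out a replicate was impossible for the same reason. Of 30 log2 ratios of mutant over control, 26 kept their sign under every alternative run for them, and the exceptions were Mitf with 1 to 2 Ctsk plus Mmp9 UMIs and Nfatc1, Prdm1 and Mitf with 3 or more. Over all cells, totals without mitochondrial and ribosomal protein genes gave -0.90 for Nfatc1, -1.45 for Jdp2, 0.075 for Mitf and 0.63 for Tfec. Median of ratios scaling gave -0.88 for Nfatc1, -1.43 for Jdp2, 0.094 for Mitf and 0.65 for Tfec, and TMM scaling gave -0.85 for Nfatc1, -1.40 for Jdp2 and 0.12 for Mitf. With every cell weighted alike, Nfatc1 was at -0.72, Jdp2 at -1.24, Prdm1 at -0.84 and Mitf at 0.24. Removing doublets, removing neutrophil-gate and stromal-gate cells, and dropping the cell filter left the 5 all-cell ratios within their intervals. The control gap of Ctsk detection between Nfatc1-positive and Nfatc1-negative cells was 9.17 points at 2000 UMIs and 10.7 points when 2 UMIs were asked for. At 2000 UMIs the upper-class ratio of Nfatc1 turned to 0.43, the Tfec to Ctsk gap in control non-cycling cells to -1.01 points, and in mutant cycling cells the gaps of Nfatc1 to Mmp9 to -1.12, Jdp2 to Ctsk to -0.51, Prdm1 to Ctsk to -2.39 and Prdm1 to Mmp9 to -1.06 points. The cause was not tested. Of 60 co-detection gaps 42 kept their sign, and all 5 share differences did. At a mean of at least 20 CPM, 59 genes in place of 140 were 2-fold lower and 295 in place of 510 higher.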
